A study of Homo sapiens with 6 samples.

Results

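Histone genes were followed in poly(A) RNA of H3122 cells that had become resistant to crizotinib and of control H3122 cells. The genes were taken by name from the deposited table: those beginning with HIST1 to HIST4 and a histone class (H1, H2A, H2B, H3 or H4), or with H1F, H2AF, H2BF or H3F, without names that end as pseudogenes do. The rule matched 84 of 51537 genes, 26 were dropped by name, and 58 remained. They comprised 37 replication-dependent genes, 16 replication-independent genes, 4 genes that GENCODE 29 annotates as pseudogenes, and 1 antisense RNA, H1FX-AS1. These classes follow the gene names alone: HIST genes were taken as replication-dependent, and H1F, H2AF, H2BF and H3F genes as replication-independent. Testis genes such as HIST1H1T and HIST3H3 are thus in the first class, and H2AFX, which has a histone stem-loop, in the second. H3122 is a human lung adenocarcinoma line known for an EML4-ALK fusion, and crizotinib inhibits the ALK and MET kinases. The resistant group held 3 libraries of crizotinib-resistant H3122 cells, raised by stepwise exposure to the drug from 0.1 to 10 µM. The control group held 3 libraries of H3122 cells labelled as control. The labels do not say whether the resistant cells were 1 clone, whether they were still in drug when harvested, or whether replicates were separate cultures. The p-values therefore describe the spread among the 6 libraries, and that spread may be technical.

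Histones are the proteins around which DNA is wound: H2A, H2B, H3 and H4 form the nucleosome core and H1 binds the linker DNA between nucleosomes. Replication-dependent genes lie in clusters, are expressed in S phase, and give mRNAs that normally end in a stem-loop bound by SLBP in place of a poly(A) tail. Replication-independent genes, many of which encode variant histones, lie alone, are expressed through the cell cycle and give polyadenylated mRNAs. Poly(A) capture therefore recovers the replication-dependent class mainly through transcripts that carry a tail, and values for that class are not a measure of total histone mRNA.

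Each library had an estimated 29856927 to 36695580 reads. The unit is TPM, a length-scaled abundance that sums to 1000000 in each library. Of 9 epithelial markers, 7 were tested, and KRT8, KRT18, KRT19 and KRT7 were each at 1895 TPM or more in every library, whereas the lung markers NKX2-1 and SFTPB were under 1 TPM in all 6. Of 12 markers of immune, fibroblast and endothelial cells, 10 were under 1 TPM in all libraries, LYZ, DCN and LUM were at 0, and their sum was 6.61 to 8.30 TPM in resistant and 8.47 to 9.39 TPM in control libraries. Changes are log2 differences, resistant minus control, of log2(TPM + 1), with the standard error of limma, and a gene was called when its Benjamini-Hochberg adjusted p over all 16077 genes tested was below 0.05. That scale understates changes of genes with low TPM. Of the 7 epithelial markers tested, 2 were called higher and 1 lower in resistant cells. Of the 12 markers of other cells, 2 were tested, 1 called higher and 1 lower. The shares over all genes tested were 24.0% higher and 24.7% lower.

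The stem-loops are shown first because they bear on what poly(A) libraries can contain. The search did not fully separate the classes. The histone stem-loop, 16 bases that open with GG and close with CC and hold 6 pairing bases on each side of a loop rich in T, was searched on the sense strand of the GENCODE 29 transcripts. It occurred in 23 of the 58 members and in 118 of 19684 protein-coding genes (0.599%). The lines below give it for 6 members described later, 1 of them a variant gene, read 5′ to 3′ as DNA letters, with the arms of the stem in capitals.
HIST3H2A: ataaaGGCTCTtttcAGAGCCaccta
HIST1H2BD: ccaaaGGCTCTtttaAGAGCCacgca
HIST1H2AC: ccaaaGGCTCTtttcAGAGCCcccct
HIST2H2BE: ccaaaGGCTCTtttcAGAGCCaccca
HIST1H4H: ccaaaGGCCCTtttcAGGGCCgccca
H2AFX: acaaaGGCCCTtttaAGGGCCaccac
H2AFX, which encodes the variant phosphorylated at DNA breaks, is the replication-independent member with a stem-loop. Its annotated transcripts run 821 and 1044 bases past it. HIST1H2AC transcripts run up to 1128 bases past theirs and the HIST2H2BE transcript runs 1729 bases past its own.

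Among the 37 replication-dependent genes, 16 had an annotated polyadenylation-type end. This end was defined as a transcript reaching at least 100 bases past the stem-loop, or one with no stem-loop and AATAAA or ATTAAA in its last 60 bases. Their levels, as the mean of the 6 libraries, had a median of 3.28 TPM, and 7 of the 16 reached 5 TPM. The 5 genes with a stem-loop end alone had a median of 1.38 TPM and none reached 5 TPM. The other 16 had no stem-loop in any annotated transcript, a group made largely of coding-only models, with a median of 0.526 TPM and 3 genes at 5 TPM or more (HIST1H1C, HIST1H2BK and HIST2H2AC). The plot of level by transcript end gives the same genes for each group of libraries.

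**Figure D1:**
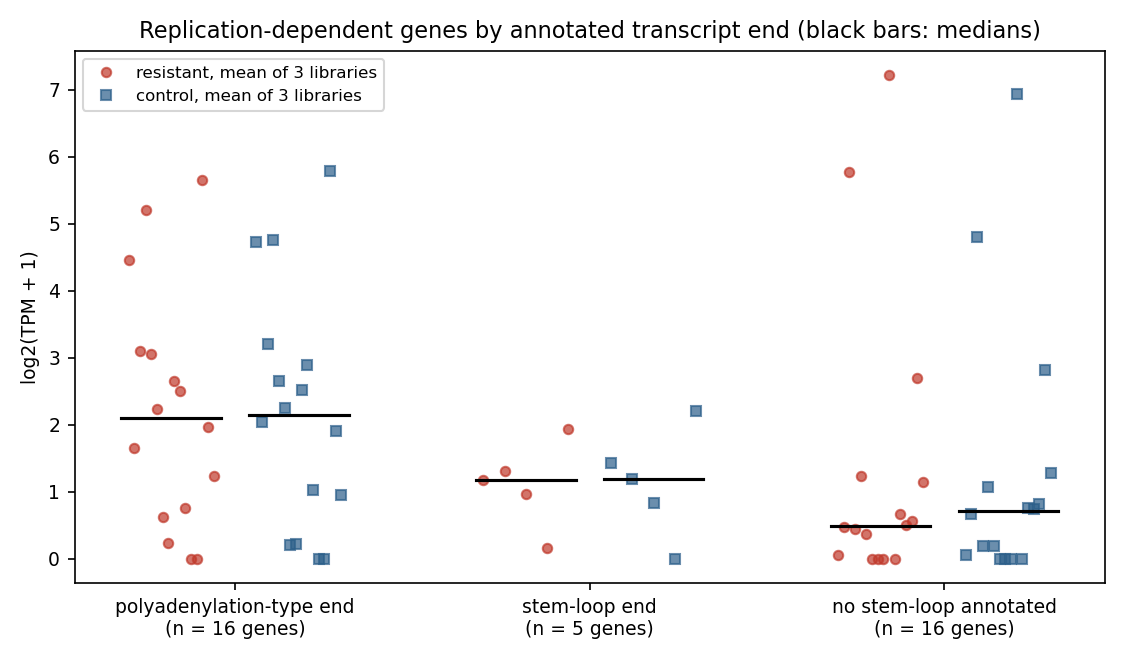
Level of the 37 replication-dependent genes as log2(TPM + 1), by the annotated end of their transcripts; circles are means of the 3 resistant libraries, squares means of the 3 control libraries, and black bars the medians. The median of the 16 genes with a polyadenylation-type end lies above that of the 5 with a stem-loop end, none of which reached 5 TPM, and the groups of genes overlap.

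Of the 58 genes, 32 passed the filter of 1 TPM in at least 3 libraries and were tested, and 11 were called, 5 higher and 6 lower in resistant cells. This is 34.4% of those tested, against 48.6% of all genes tested (24.0% higher and 24.7% lower), a share below that background. The median change was -0.07 over the 32 and -0.004 over all genes tested, and the median absolute change was 0.24 against 0.27. Groups did not overlap for 15 of the 32 (6 higher, 9 lower), which is 46.9% against 57.9% of all genes tested. In bulk libraries a change in the share of cells that express a gene and a change in RNA per cell cannot be told apart. The largest change was that of H2AFY2, the only member called at 2-fold or more. The other 26 members were not tested: 11 were listed at 0 in every library.

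**Figure D2:**
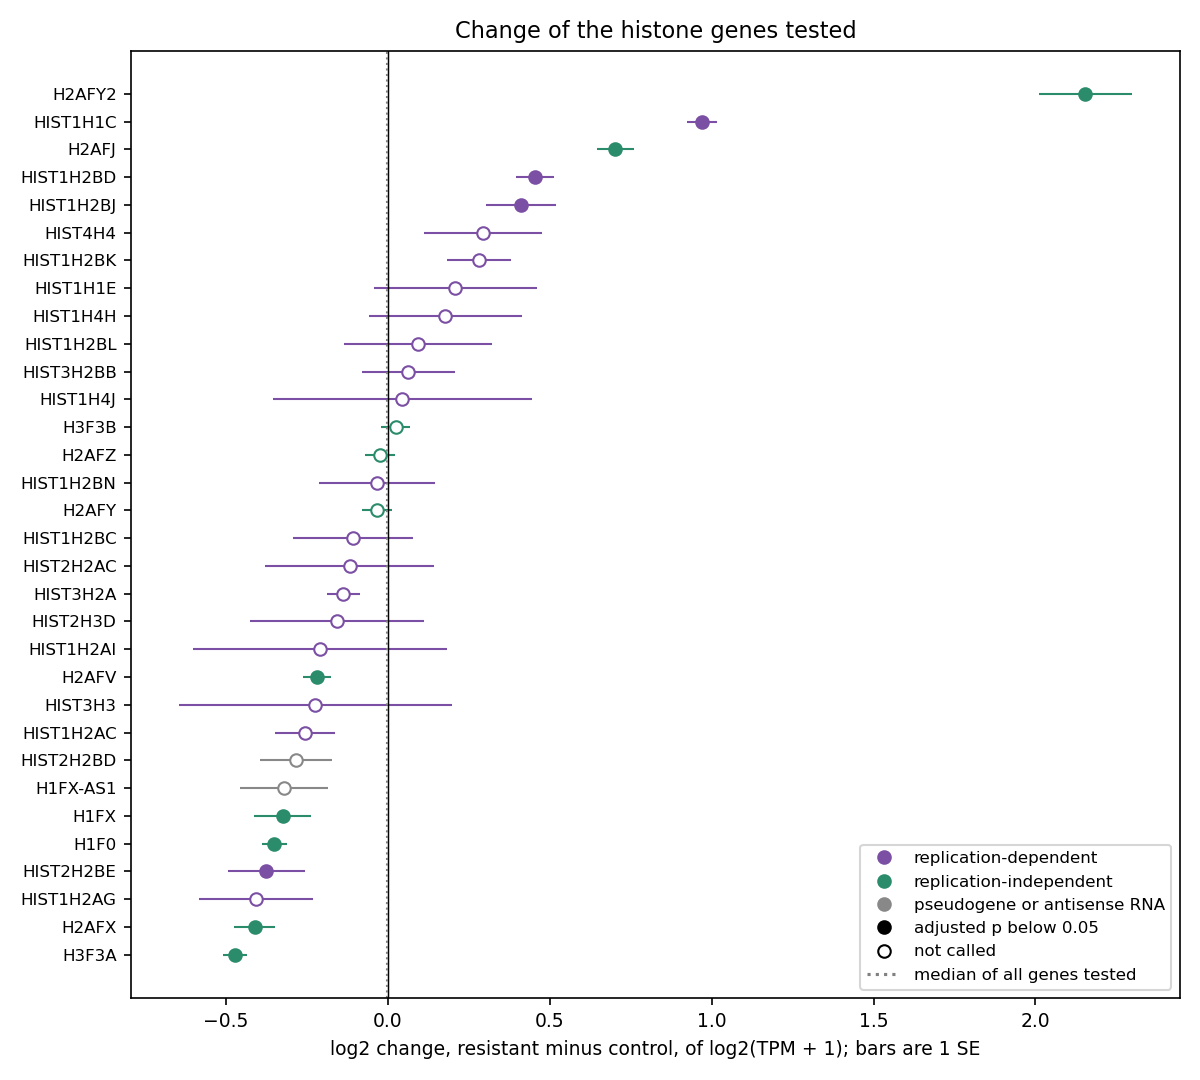
Log2 change (resistant minus control, bars 1 SE) of the 32 histone genes tested; filled points were called at an adjusted p below 0.05, colours give the gene kind, and the dotted line is the median of all genes tested. H2AFY2, HIST1H1C and H2AFJ lie highest, and H3F3A and H2AFX lowest.

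The linker histones moved in opposite directions. HIST1H1C, the clustered gene for the linker histone H1.2 (ENSG00000187837, GRCh38 chromosome 6, 26055787 to 26056428, minus strand), had 53.5, 51.5 and 55.1 TPM in the resistant libraries, against 26.4, 27.4 and 26.4 TPM in the control libraries. Every resistant library was above every control library, with little spread in either group. Its level rose 1.99-fold, a log2 change of 0.97 ± 0.05 (limma adjusted p = 7.23e-06).

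H1F0, the linker histone H1.0 that is known to accumulate in cells that leave division or differentiate (chromosome 22, 37805093 to 37807436), had 220.4, 235 and 226 TPM in resistant and 285, 294 and 289.9 TPM in control libraries. The groups did not overlap, and H1F0 fell by 0.35 ± 0.04 on the log2 scale (limma adjusted p = 2.96e-04). H1FX, the linker histone H1.10 (chromosome 3, 129314771 to 129316277), had 170.4, 208 and 219 TPM in resistant and 248, 249 and 249 TPM in control libraries. Its first resistant library stood apart from the other two, while the control libraries were nearly equal. The change was -0.33 ± 0.09 (limma adjusted p = 0.018), without control replicate 3 the adjusted p was 0.0501, and without resistant replicate 1 the change was -0.22 (adjusted p = 0.00521). Of 31 genes tested within 1000000 bases of H1FX, 1 was called higher and 16 lower, beside 24.0% higher and 24.7% lower over all genes tested. Their median change was -0.24, and their part in the change of H1FX was not tested.

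H1FX-AS1, the antisense RNA that overlaps H1FX on the other strand (chromosome 3, 129315392 to 129326225), was at 2.99 ± 0.536 TPM in resistant and 3.98 ± 0.491 TPM in control libraries (SD, n = 3 each) and was not called (log2 change -0.32, limma adjusted p = 0.087). The libraries came from a stranded kit, but no source used here says that counting used strand, so reads of H1FX and its antisense partner cannot be told apart. The other clustered H1 genes were low. HIST1H1E (H1.4) was at 1.36 ± 0.279 TPM in resistant and 1.11 ± 0.644 TPM in control libraries and was not called (adjusted p = 0.529). HIST1H1A, HIST1H1B, HIST1H1D and the testis gene HIST1H1T were under the filter, with no library above 1.21 TPM.

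HIST1H1C held 11.1% ± 0.809 of the summed H1 TPM in resistant cells and 4.72% ± 0.0729 in control cells (SD, n = 3 each). The share of H1F0 was 47.1% ± 2.23 in resistant and 51.1% ± 0.215 in control cells, and that of H1FX was 41.2% ± 2.82 in resistant and 43.8% ± 0.312 in control cells. The summed H1 level was 447, 497 and 503 TPM in resistant libraries, against 561, 572 and 569 TPM in control libraries, so it was lower in every resistant library although HIST1H1C was higher.

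A sequence that clustered H1 promoters are known to share, the H1 box AAACACA, is shown for the 5 clustered H1 genes that carry it on the sense strand, to set the gene that rose beside its low-level relatives. The windows are 31 bases from RefSeq on GRCh38.p14, with the box in capitals. They lie at chr6:26056571-26056601 (minus) for HIST1H1C, chr6:26156200-26156230 (plus) for HIST1H1E, chr6:27867687-27867717 (minus) for HIST1H1B, chr6:26235088-26235118 (minus) for HIST1H1D and chr6:26108222-26108252 (minus) for HIST1H1T.
HIST1H1C: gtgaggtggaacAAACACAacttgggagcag
HIST1H1E: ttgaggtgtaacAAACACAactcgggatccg
HIST1H1B: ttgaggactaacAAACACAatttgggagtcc
HIST1H1D: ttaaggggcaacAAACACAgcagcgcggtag
HIST1H1T: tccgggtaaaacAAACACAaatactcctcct
The box starts 119 bases before the RefSeq start in HIST1H1C and HIST1H1D, 117 in HIST1H1E and HIST1H1B, and 105 in HIST1H1T. HIST1H1D, with the same spacing as HIST1H1C, did not exceed 0.664 TPM, and none of these 4 relatives exceeded 1.70 TPM in any library. Poly(A) libraries do not measure total mRNA of clustered genes, so these levels do not show how active the promoters were. On either strand, AAACACA occurred in 7 of 9 H1 promoters, in 0 of 12 H2B promoters and in 5.76% of 27305 RefSeq promoter windows of 250 bases before to 50 after the start.

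The H2A variants gave the largest change of the set. H2AFY2 encodes macroH2A2, a core histone with a large extra domain that is associated with silent chromatin (ENSG00000099284, chromosome 10, 70052796 to 70112280, plus strand). It had 16.4, 18.4 and 15.2 TPM in resistant libraries, against 3.83, 2.32 and 2.84 TPM in control libraries. The groups were far apart, and the level was 5.55-fold higher in resistant cells, a log2 change of 2.15 ± 0.14 (limma adjusted p = 3.08e-05). Its values correspond to an estimated mean of 182 reads per library. H2AFY, which encodes macroH2A1, stood at 45.8, 46.4 and 46.6 TPM in resistant and 45.2, 48.0 and 49.1 TPM in control libraries. Those groups overlapped and no change was called (log2 change -0.03 ± 0.05, adjusted p = 0.566). H2AFY2 thus held 26.4% ± 1.89 of the summed macroH2A TPM in resistant cells and 5.97% ± 1.66 in control cells (SD, n = 3 each). Of 21 genes tested within 1000000 bases of H2AFY2, 4 were called higher and 12 lower, beside 24.0% higher and 24.7% lower over all genes tested. Their median change was -0.44.

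H2AFJ, which encodes the H2A variant H2A.J (chromosome 12, 14774383 to 14778002), had 77.9, 85.5 and 82.0 TPM in resistant and 46.6, 52.1 and 51.0 TPM in control libraries. All resistant libraries lay above all control libraries, and H2AFJ rose by 0.70 ± 0.06 on the log2 scale (limma adjusted p = 7.53e-05). Its 8 tested neighbours within 1000000 bases had a median change of -0.19. H2AFX had 155, 180.1 and 182 TPM in resistant and 227, 229.5 and 231 TPM in control libraries. The first resistant library was the lowest, and the groups did not overlap. H2AFX fell by 0.41 ± 0.06 (limma adjusted p = 0.00145). Of 36 genes tested within 1000000 bases of H2AFX, 15 were called higher and 5 lower, with a median change of 0.10. The shares over all genes tested were 24.0% higher and 24.7% lower.

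The H2A.Z pair differed in size of change. H2AFV, which encodes H2A.Z.2, had 99.7, 100.3 and 96.0 TPM in resistant and 111, 118 and 116 TPM in control libraries, and fell by 0.22 ± 0.04 (limma adjusted p = 0.00452). H2AFZ, which encodes H2A.Z.1 and had the highest TPM of the H2A genes, had 361, 357 and 351 TPM in resistant and 342, 377 and 369 TPM in control libraries. Its groups overlapped and it was not called (-0.03 ± 0.05, adjusted p = 0.677). H2AFZ made up 78.3% ± 0.247 of the summed H2A.Z TPM in resistant and 75.9% ± 0.311 in control cells, with no overlap between groups. The difference between the changes of these paralogues was not tested.

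The replication-independent H3 genes H3F3A and H3F3B encode the same H3.3 protein, which is placed on DNA outside replication. H3F3A (ENSG00000163041, chromosome 1, 226061851 to 226072001) had 310.2, 306 and 309 TPM in resistant and 420.0, 442 and 424 TPM in control libraries. The resistant libraries were all far below the control libraries, and H3F3A fell by 0.47 ± 0.04 (limma adjusted p = 5.56e-05). H3F3B (chromosome 17, 75776434 to 75785893) had 157, 160.3 and 154 TPM in resistant and 149, 162 and 154 TPM in control libraries. Its groups overlapped and it was not called (0.02 ± 0.04, adjusted p = 0.695).

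The share of H3F3A in H3.3 transcripts was 66.2% ± 0.553 in resistant and 73.5% ± 0.342 in control cells (SD, n = 3 each). Processed pseudogenes hold sequence close to H3F3A, and 2 were picked with their values known. H3F3AP4, left out of the set by name, was listed at 116 ± 7.04 TPM in resistant and 154 ± 3.78 TPM in control libraries, and H3F3AP6 at 28.4 ± 4.42 TPM in resistant and 37.8 ± 3.07 TPM in control libraries. How reads that fit several places were counted is not given in the sources used here, so these 3 rows are uncertain one by one. Their sum was 453 ± 12.2 TPM in resistant and 620.4 ± 13.4 TPM in control libraries. Of 19 genes tested within 1000000 bases of H3F3A, 0 were called higher and 14 lower, beside 24.0% higher and 24.7% lower over all genes tested. Their median change was -0.26.

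**Figure D3:**
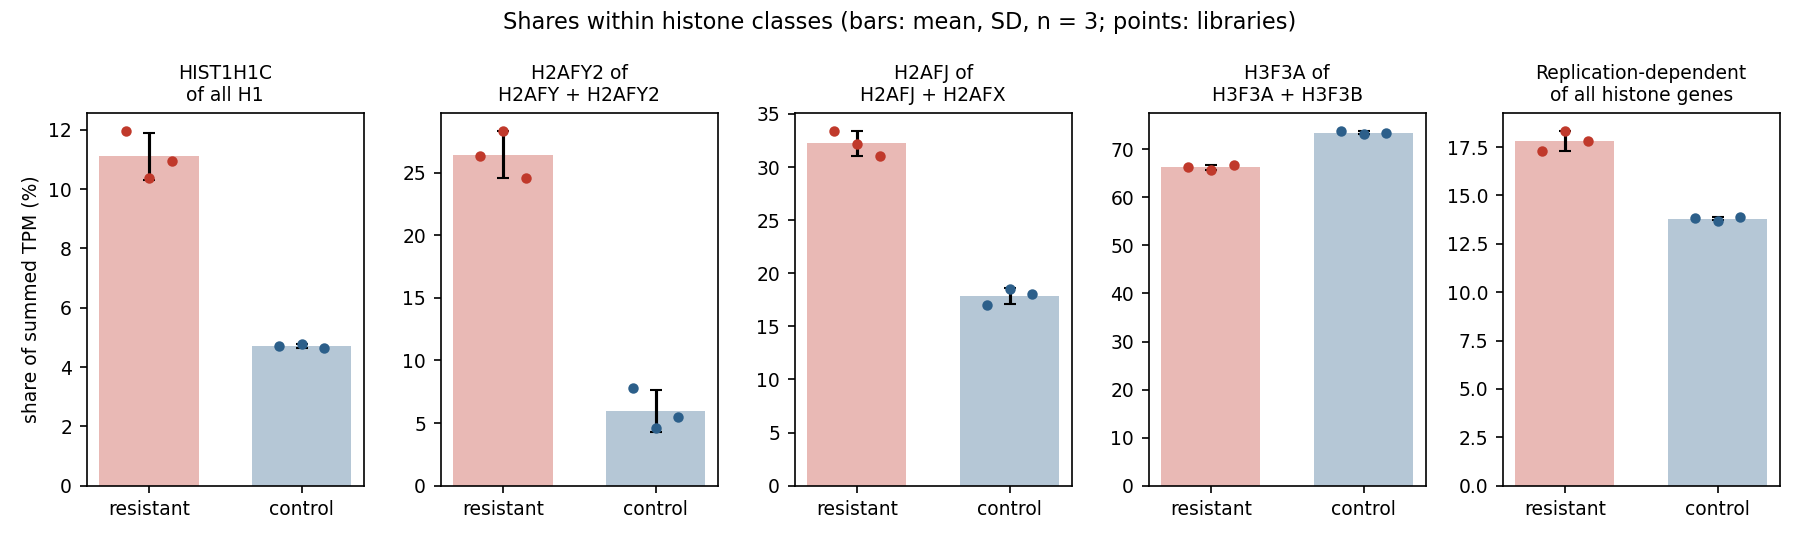
Shares of summed TPM in percent: HIST1H1C among H1 genes, H2AFY2 among macroH2A genes, H2AFJ beside H2AFX, H3F3A among H3.3 genes, and the replication-dependent genes among the protein-coding histone genes of the set. Bars are means with SD of 3 libraries and points are libraries; resistant stands left of control in each panel, and only the H3F3A share was lower in resistant cells.

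Replication-dependent H2B genes had calls in both directions. HIST1H2BD (ENSG00000158373, chromosome 6, 26158146 to 26171349) had 35.3, 38.3 and 34.1 TPM in resistant and 25.4, 26.9 and 25.5 TPM in control libraries. The groups were clearly apart and it rose by 0.45 ± 0.06 (limma adjusted p = 5.51e-04). HIST1H2BJ (chromosome 6, 27125897 to 27132750) had 7.26, 6.60 and 8.19 TPM in resistant and 4.75, 5.92 and 5.17 TPM in control libraries. The groups were separate but close, and it rose by 0.41 ± 0.11 (limma adjusted p = 0.0157), with an adjusted p of 0.0575 without resistant replicate 3.

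HIST2H2BE (chromosome 1, 149884459 to 149886652) had 4.5, 5.25 and 4.32 TPM in resistant and 6.19, 5.57 and 7.45 TPM in control libraries. The groups were separate and it fell by 0.38 ± 0.12 (limma adjusted p = 0.0336). The call was lost when resistant replicate 1 (adjusted p = 0.0763), resistant replicate 3 (0.101), control replicate 1 (0.0607) or control replicate 3 (0.114) was left out, and with no filter on low values (0.0740). It was the only replication-dependent gene called lower.

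HIST1H2BK, the H2B gene with the highest level, had 125, 166 and 153 TPM in resistant and 117, 123 and 123 TPM in control libraries. The first resistant library lay just above the control libraries and the other two well above them. It narrowly missed the threshold (0.28 ± 0.10, limma adjusted p = 0.0501) and was called without resistant replicate 1 (0.40, adjusted p = 0.00111). Of its 31-base stretches, 13.7% occur in no other annotated gene, so its level is uncertain where counting could split reads between copies. HIST1H2BC was at 7.55 ± 1.5 TPM in resistant and 8.26 ± 2.0 TPM in control libraries (adjusted p = 0.666). HIST1H2BN, HIST1H2BL and HIST3H2BB were each below 5 TPM in every library and were not called.

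Promoters of the 5 members called higher are shown because they place the clustered genes beside the variants. The stretches are the 180 bases before the RefSeq start (GRCh38.p14), 5′ to 3′ on the strand of the gene: chr6:26056471-26056650 (minus) for HIST1H1C, chr6:26157941-26158120 (plus) for HIST1H2BD, chr6:27132796-27132975 (minus) for HIST1H2BJ, chr12:14774225-14774404 (plus) for H2AFJ and chr10:70052666-70052845 (plus) for H2AFY2. Capitals mark matches, on either strand, to 4 motifs: the CCAAT box, the TATAAA sequence of TATA boxes, the octamer known from H2B promoters (ATTTGCAT) and the H1 box shown above.
HIST1H1C: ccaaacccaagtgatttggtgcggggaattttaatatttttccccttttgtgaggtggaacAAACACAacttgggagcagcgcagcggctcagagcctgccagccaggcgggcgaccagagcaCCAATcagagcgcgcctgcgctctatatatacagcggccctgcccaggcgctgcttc
HIST1H2BD: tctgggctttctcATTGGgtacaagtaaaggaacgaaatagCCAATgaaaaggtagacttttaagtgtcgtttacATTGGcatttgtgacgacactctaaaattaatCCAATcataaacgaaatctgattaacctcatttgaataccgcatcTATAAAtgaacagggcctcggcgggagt
HIST1H2BJ: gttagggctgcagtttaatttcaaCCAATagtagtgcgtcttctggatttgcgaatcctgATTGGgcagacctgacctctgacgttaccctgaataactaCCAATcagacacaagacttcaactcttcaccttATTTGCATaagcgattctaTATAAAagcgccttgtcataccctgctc
H2AFJ: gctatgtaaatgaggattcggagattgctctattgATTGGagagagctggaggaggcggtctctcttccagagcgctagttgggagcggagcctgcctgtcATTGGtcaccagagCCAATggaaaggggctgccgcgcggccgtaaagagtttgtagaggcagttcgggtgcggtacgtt
H2AFY2: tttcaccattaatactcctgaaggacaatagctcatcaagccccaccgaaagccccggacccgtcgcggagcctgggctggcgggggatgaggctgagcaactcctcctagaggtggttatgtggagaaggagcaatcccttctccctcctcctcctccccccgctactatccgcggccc
HIST1H2BD and HIST1H2BJ each held 4 CCAAT matches in the 300-base window and a TATAAA on the sense strand 28 bases before the start. HIST1H2BJ also held the octamer 47 bases before the start, and so did the promoters of HIST1H2BK and HIST2H2BE, 46 bases before theirs, although HIST2H2BE was called lower. H2AFJ held 3 CCAAT matches and no TATAAA, and H2AFY2 held none of these motifs. Over the 47 member genes matched to RefSeq, CCAAT occurred in 29 of 34 replication-dependent and 10 of 13 replication-independent promoters, against 35.7% of all promoters. TATAAA occurred in 22 of 34 and 4 of 13, against 12% of all, and the octamer in 13 of 34 and 1 of 13, against 1.80%. The 34 are not all separate sequences. HIST1H2AD and HIST1H3D were matched to the same window, so its CCAAT and octamer matches count for both. Both HIST1H4A rows were matched to windows of the same sequence. A match here is a description of letters and not of a factor bound.

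HIST1H2BJ and HIST1H2AG start 291 bases apart on opposite strands, facing away from each other, a pair picked with its values known. HIST1H2AG had 1.57, 1.92 and 3.0 TPM in resistant and 3.44, 2.95 and 2.98 TPM in control libraries and was not called (-0.41 ± 0.18, limma adjusted p = 0.0935). On the log2(TPM + 1) scale HIST1H2BJ exceeded HIST1H2AG by 1.69, 1.38 and 1.20 in resistant and by 0.37, 0.81 and 0.63 in control libraries, with no overlap. In HIST1H2BC and HIST1H2AC, a like pair 218 bases apart, the difference was -1.38 ± 0.24 in resistant and -1.53 ± 0.28 in control libraries (SD, n = 3 each), which overlapped. Neither pair difference was tested.

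Replication-dependent H2A genes gave no call. HIST3H2A, the most abundant of them, had 50.4, 49.5 and 47.9 TPM in resistant and 55.2, 51.2 and 56.6 TPM in control libraries. The groups did not overlap, but the change of -0.14 ± 0.05 was not called (limma adjusted p = 0.0587) and became a call without control replicate 2 (adjusted p = 0.0308). HIST1H2AC had 21, 22 and 20.2 TPM in resistant and 25.4, 28.9 and 22.2 TPM in control libraries. All its resistant libraries were below the lowest control library, and the change of -0.26 ± 0.09 was not called (adjusted p = 0.0539), but was without control replicate 3 (-0.35, adjusted p = 0.0132); without control replicate 2 it was -0.17 (adjusted p = 0.136). HIST2H2AC was at 5.49 ± 1.70 TPM in resistant and 6.02 ± 1.75 TPM in control libraries (adjusted p = 0.737). The summed replication-dependent H2A level was 79.8 ± 1.04 TPM in resistant and 91.4 ± 0.409 TPM in control libraries, with no overlap.

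Replication-dependent H3 and H4 genes of the set, 6 of each, had low listed TPM. Their summed levels were 4.61 ± 0.652 TPM (H3) and 8.73 ± 1.09 TPM (H4) in resistant libraries, against 5.75 ± 1.85 TPM (H3) and 7.49 ± 2.37 TPM (H4) in control libraries, which overlapped in both classes. HIST1H4H, the highest, was at 5.27 ± 0.688 TPM in resistant and 4.75 ± 2.04 TPM in control libraries and was not called (adjusted p = 0.571). Single control libraries decided its value: it was called higher without control replicate 1 (0.45, adjusted p = 0.0493), and the change was -0.04 without control replicate 2. HIST2H3A and HIST2H3C share an identical annotated transcript and were both listed at 0 in every library. HIST1H3D, of whose 31-base stretches 0% are found in no other gene, was also listed at 0. Both rows named HIST1H4A in the deposited table carry identifiers that GENCODE 29 gives to HIST2H4A and HIST2H4B on chromosome 1, and neither exceeded 1.07 TPM. The part of shared sequence and of poly(A) capture in these low values was not tested, and genes outside the set may add to each class.

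HIST2H2BD, an H2B pseudogene in GENCODE 29 that the name rule kept, had 10.6, 10.5 and 8.58 TPM in resistant and 10.9, 12 and 13.9 TPM in control libraries. The groups did not overlap, and it was not called (-0.29 ± 0.11, limma adjusted p = 0.0673). It became a call without control replicate 1 (-0.36, adjusted p = 0.0402), with a filter at 5 TPM (0.0448), with median-ratio scaling (0.0325) and with limma-voom on rebuilt reads (0.0401). The other 3 pseudogenes were listed at 0. HIST3H3, a testis H3 gene, was at 2.82 ± 1.35 TPM in resistant and 3.63 ± 2.04 TPM in control libraries (SD, n = 3 each) and was not called (limma adjusted p = 0.693). Other genes known from germ cells were lower: H2BFM and H2BFWT were listed at 0 in all libraries, H1FNT and H1FOO did not exceed 0.174 TPM, and HIST1H2AA and HIST1H2BA were at 0. H3F3C reached 0.448 TPM at most.

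**Figure D4:**
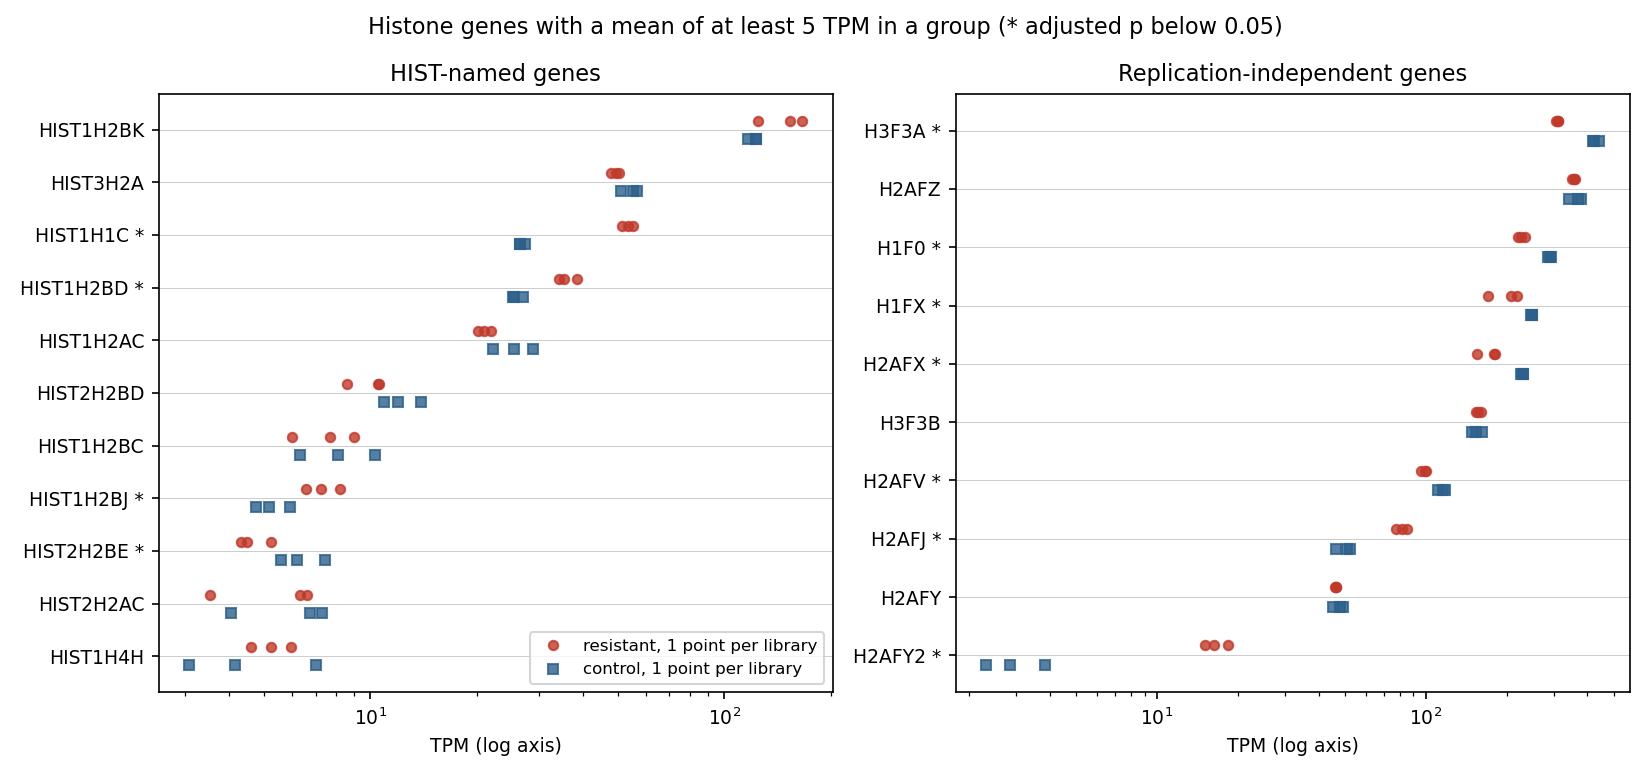
TPM of the 21 histone genes whose mean reached 5 TPM in a group, on a log axis, with circles for the 3 resistant and squares for the 3 control libraries; an asterisk marks an adjusted p below 0.05. Among HIST-named genes (left) HIST1H1C, HIST1H2BD and HIST1H2BJ were called higher and HIST2H2BE lower in resistant cells. Without a call, HIST1H2BK lies higher and HIST1H2AC, HIST3H2A and HIST2H2BD lie lower with no overlap of groups. Among replication-independent genes (right) H2AFY2 and H2AFJ are separated upward and H3F3A, H1F0, H1FX, H2AFX and H2AFV downward.

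Summed over the replication-dependent genes, the level was 337, 381 and 365 TPM in resistant libraries, against 302, 313 and 312 TPM in control libraries. Summed over the replication-independent genes it was 1614, 1698 and 1682 TPM in resistant libraries, against 1878, 1975 and 1935 TPM in control libraries. Both sums separated the groups, in opposite directions. The replication-dependent genes held 17.8% ± 0.533 of the TPM of the 53 protein-coding genes in the set in resistant and 13.8% ± 0.0936 in control cells (SD, n = 3 each). Of 91 protein-coding histone genes in GENCODE 29, 38 are not in the set, 32 of them in the chromosome 6 cluster. The mean of the replication-dependent sum was 361 TPM in resistant and 309 TPM in control libraries. HIST1H2BK, not called and of uncertain level, averaged 148 TPM in resistant and 121 TPM in control libraries. HIST1H1C averaged 53.3 TPM in resistant and 26.8 TPM in control libraries. The joint excess of HIST1H2BK and HIST1H1C was as large as that of the sum, so the other genes together did not add to it. Counting calls, 3 replication-dependent genes of 20 tested were higher, 1 lower and 16 not called, with a median change of 0.005, and 2 replication-independent genes of 10 tested were higher, 5 lower and 3 not called, with a median of -0.13. Over all genes tested, 24.0% were called higher and 24.7% lower. Without resistant replicate 1 or control replicate 1 no replication-dependent gene was called lower, and without control replicate 2 there were 2.

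RNAs that lack a poly(A) tail were read beside the replication-dependent genes. They do not measure how much untailed RNA the libraries held, since the counting of reads that fit several places is not known. Of 24 found, 12 were listed at 0 in all libraries, RN7SK among them, and 5 were tested. Their sum was 134 to 170.0 TPM in resistant and 96.9 to 131 TPM in control libraries. SNORD17, a small nucleolar RNA, was at 58.4 ± 6.84 TPM in resistant and 22.4 ± 2.55 TPM in control libraries and rose by 1.34 ± 0.11 (limma adjusted p = 6.29e-05). SCARNA6 and MALAT1 were picked with their values known. SCARNA6 also rose (0.89 ± 0.27, adjusted p = 0.0298), and 3 of the 5 were not called, among them the nuclear RNA MALAT1 (-0.05 ± 0.16, adjusted p = 0.814). In all, 2 of the 5 were called higher and 0 lower, beside 24.0% higher and 24.7% lower over all genes tested. With 5 genes this count carries little. The count of 2 became 1 without resistant replicate 1, resistant replicate 3, control replicate 1 or control replicate 2. Their sum was higher in resistant libraries, as the summed replication-dependent level was, while the 5 tested had a median change of -0.05, and their part in that level was not tested.

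The factors that make histone mRNA showed calls in both directions. Of 30 genes for histone gene transcription and 3′ end processing, 7 were called higher, 11 lower and 12 were not called, and the median change was -0.0003. Among all genes tested, 24.0% were called higher and 24.7% lower. NELFE, a subunit of the negative elongation factor, was at 112 ± 5.0 TPM in resistant and 74.0 ± 2.95 TPM in control libraries and rose by 0.59 ± 0.05 (limma adjusted p = 9.15e-05). ZCCHC11, a uridylyl transferase with a role in histone mRNA decay, was at 5.89 ± 0.743 TPM in resistant and 12.1 ± 1.11 TPM in control libraries and fell by 0.93 ± 0.10 (adjusted p = 3.03e-04). The cleavage stimulation factors CSTF2 and CSTF2T fell by 0.51 ± 0.06 and 0.59 ± 0.06. SLBP, the stem-loop binding protein, and NPAT, the activator of clustered histone genes, were chosen after their values were seen. SLBP was at 116 ± 2.14 TPM in resistant and 110.4 ± 7.74 TPM in control libraries (adjusted p = 0.298), and NPAT at 5.67 ± 1.07 TPM in resistant and 5.32 ± 0.888 TPM in control libraries (adjusted p = 0.722).

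Of 31 histone chaperones and exchange factors tested, 4 were called higher, 11 lower and 16 were not called, with a median change of -0.08. The shares over all genes tested were 24.0% higher and 24.7% lower. ATRX, which with DAXX places H3.3 at repeats, was at 6.93 ± 1.43 TPM in resistant and 17 ± 2.4 TPM in control libraries and fell by 1.19 ± 0.15 (limma adjusted p = 5.55e-04). UBN2, of the HIRA complex that places H3.3 in genes, fell by 0.79 ± 0.10 and RBBP7, a histone-binding subunit of several complexes, by 0.57 ± 0.05. HIRA itself, chosen after its values were seen, fell by 0.31 ± 0.10 (adjusted p = 0.0353). CHAF1B, a subunit of the CAF-1 complex that places H3 and H4 behind replication forks, was at 35.1 ± 1.97 TPM in resistant and 22.5 ± 0.706 TPM in control libraries and rose by 0.62 ± 0.06 (adjusted p = 1.17e-04). The count of 4 fell to 2 without resistant replicate 1, resistant replicate 2 or control replicate 1, and to 1 without resistant replicate 3.

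Genes of S phase, when replication-dependent histones are made, were listed as well: 13 of 40 tested were called higher, 3 lower and 24 were not called, with a median change of 0.09, beside 24.0% of all genes tested called higher and 24.7% lower. CDC6, a replication licensing factor, was at 70.8 ± 3.82 TPM in resistant and 43.8 ± 1.89 TPM in control libraries and rose by 0.68 ± 0.06 (limma adjusted p = 7.02e-05). TIPIN, of the fork protection complex, rose by 0.65 ± 0.09, and USP1, a deubiquitinase of PCNA, fell by 0.66 ± 0.06. Leaving out resistant replicate 2, control replicate 1 or control replicate 3 lowered the count of 13 to 8, as did testing with no filter on low values or without trend and robust moderation in limma, and without control replicate 1 the count of 3 became 5. Of 52 genes of G2 and M phase, 12 were called higher and 12 lower, with a median of 0.003. CDK1, the mitotic kinase, rose by 0.66 ± 0.09 and HMGB2 fell by 0.54 ± 0.06. The G2 and M count called lower was 7 without control replicate 3.

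Inside the chromosome 6 histone cluster (25726132 to 27893106) lie 46 non-histone genes, of which 19 were tested. Of these, 5 were called higher, 3 lower and 11 were not called, with a median change of 0.17. Calls over all genes tested were 24.0% higher and 24.7% lower. BTN2A2, a butyrophilin, rose by 0.48 ± 0.11 and HFE, the iron regulator, fell by 0.24 ± 0.06 (limma adjusted p = 0.0103 and 0.0133). The count called higher was 3 without resistant replicate 1 or resistant replicate 3, and the count called lower was 0 without control replicate 3. Within 1000000 bases of HIST1H1C, 17 tested genes had a median change of 0.10. The chromosome 1 cluster that holds HIST2H2BE (149782689 to 149887916) has 4 non-histone genes. The 1 tested was called higher (log2 change 0.34), whereas HIST2H2BE was called lower. The cluster of HIST3H2A has 1 such gene, which was not tested.

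**Figure D5:**
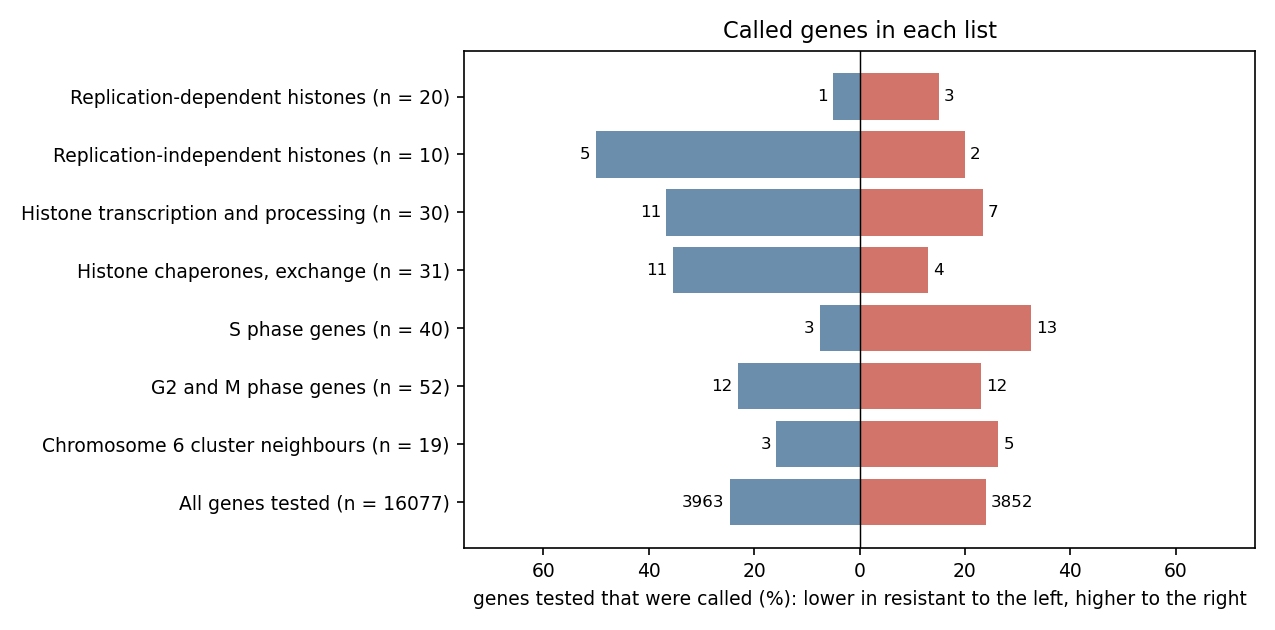
Percent of the tested genes of each list called lower (left) and higher (right) in resistant cells, with the number of genes beside each bar and all genes tested at the bottom. Of 20 replication-dependent histone genes 3 were called higher and 1 lower, and 13 of 40 S phase genes were called higher.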

How the data were processed

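The 6 libraries were made with a stranded mRNA kit from bead-captured poly(A) RNA, per the labels' protocols. The authors deposited 1 table of TPM for 51537 genes, with a column per library. The submitters' processing notes name HISAT2. The build, annotation, counting tool and handling of reads that fit several places, and the HISAT2 version, are not given in the sources used. All 51537 identifiers occur in GENCODE 29, whose GRCh38 coordinates (1-based) are used.

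The members and the gene lists were chosen with earlier results of these data known. TPM keeps no depth, so reads were estimated from TPM, the GENCODE 29 union exon length and the smallest step of each library: 67.2% to 67.9% of values above 0 were whole within 0.01 read. Histone rows often were not whole, so intervals from reads are not given.

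The table held TPM and no counts, so limma 3.58.1 (R 4.3.3, statmod 1.5.0) was fitted to log2(TPM + 1) of all 6 libraries on group alone, with a mean-variance trend and robust moderation, two-sided. A gene had to reach 1 TPM in 3 or more libraries to be tested (16077). P-values were adjusted by Benjamini-Hochberg over all of them. The fit was also run on simulated counts, with the same dispersion for every gene and few genes changed. These data differ on both points, so that run does not show how the fit performs here. Values in every library are given for members whose higher group averaged 5 TPM or more. From each other list up to 4 called genes of at least 5 TPM were named, largest change first. Any other gene is marked in the text as picked with its values known, except the cell type markers and RN7SK, which were named outside this rule. Sums, shares, sequence matches and pair differences are descriptions without a test.

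Replicates were compared before averaging: a chi-square per gene on rebuilt reads lay between 4.05 and 11.9 for libraries of 1 group, where counting noise alone gives about 1, and no library was a copy of another. Stem-loops were searched in GENCODE 29 transcripts and motifs in RefSeq promoter windows (GRCh38.p14), which matched 47 members. The share of 31-base stretches found in no other gene was counted over all GENCODE 29 transcripts. GENCODE 29 lists 91 protein-coding histone genes, of which 38, 32 of them in the chromosome 6 cluster, are not analysed here. Alternatives were another pseudocount, other filters, median-ratio scaling, leaving out the 1% of genes with the largest mean, a replicate block, limma-voom on rebuilt reads, limma without trend and robust moderation, and leaving out each library.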

Additional observations from a re-analysis of the deposited data

How the results depend on the processing

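The counts of histone genes called higher and lower stayed within 1.5 times of 5 and 6 under the alternatives run, and no named histone gene reversed a call. Without 1 library each, histone genes called higher were 4 to 6 and lower 5 to 7, and those lower were 9 with a filter at 5 TPM and 8 with median-ratio scaling. Replication-dependent genes called lower were 0 to 2, against 1, and were 0 with no filter, 3 with a filter at 5 TPM and 2 with median-ratio scaling. S phase genes called higher were 8 to 12 without 1 library, against 13, and 8 with no filter and with limma without trend and robust moderation, and those called lower 3 to 5. G2 and M phase genes called lower were 7 to 12. Histone chaperones called higher were 1 to 5, against 4, and were 1 with no filter and 10 with limma-voom on rebuilt reads. Untailed RNAs called higher were 1 to 2, and 1 with no filter, with a filter at 5 TPM and with limma-voom. Those called lower were 0 to 1, and 1 with a pseudocount of 0.1, a filter at 5 TPM and median-ratio scaling. Genes of the chromosome 6 cluster called higher were 3 to 5, and 3 with a filter at 5 TPM, and those called lower 0 to 3. The cause was not tested. HIST1H2BK, beside the threshold, was called in 6 of its 14 alternatives, with adjusted p from 0.00111 to 0.136, and HIST2H2BE lost its call in 6 of 14, from 0.0217 to 0.114.

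Samples with the same replicate number did not deviate together (r = -0.058, -0.0017 and -0.016 across genes), which gave no sign that the numbers pair the libraries. A correlation across all genes cannot exclude pairing that touches only some of them. With the replicate block, 3433 genes were called higher and 3423 lower, against 3852 and 3963. Histone genes stayed at 5 higher and 6 lower, S phase genes called higher were 8, chaperones called higher 2 and untailed RNAs called lower 1, HIST1H2BJ (adjusted p = 0.0521) and HIST2H2BE (0.0937) lost their calls, and HIST1H2AC (0.0385) and HIST1H2BK (0.0306) gained one. Replication-dependent H3 and H4 genes had low TPM, which limits what their tests can show.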
